A study of Mus musculus with 12 samples.

Results

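MT and ORR1 elements are mouse repeats of the MaLR group, relatives of the endogenous retrovirus ERVL. They carry a long terminal repeat (LTR) at each end, which holds a promoter, and an internal stretch between the LTRs, listed with the ending -int, which encodes no protein of its own. The letters run roughly from younger names (MTA, ORR1A) to older ones (MTE, ORR1G). MT LTRs are known for driving transcription in the mouse oocyte, where an MTC LTR starts the oocyte form of Dicer, and copies of these repeats are methylated at CpG sites in most other cells. Primordial germ cells (PGCs), from which eggs and sperm derive, lose most of their DNA methylation while they migrate to the gonad and settle in it, so that the repeats can be followed through that loss.

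The members were the repeat rows of class LTR/ERVL-MaLR whose name begins with MT or ORR1 and which had a methylation level in all 12 libraries. They numbered 1901 of the 3700 MT and ORR1 rows with a level in at least 1 library, and of 133311 features of any kind with a level in all 12. The other 1799 rows lacked a level somewhere and are not described. A row gives a name and the stretch of that name's consensus which it covers, such as MTD:6-373. It gives no place in the genome, and how copies with the same name and stretch were combined is not stated. The members held 1576 rows of 23 LTR names and 325 rows of 25 internal names. The largest names were MTD with 313 rows, ORR1E with 197, MTEa with 172 and ORR1F with 143, and 10 names had fewer than 5 rows. Rows of one name share a consensus and often overlap on it, so they are not replicates, and conditions were compared over libraries.

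Levels came from reduced representation bisulfite sequencing (RRBS), in which the enzyme MspI enriches CpG-rich fragments and bisulfite turns unmethylated cytosine into a base read as T. The level is the share of methylated calls, given here in percent, and differences are in percentage points. The 12 libraries formed 6 groups of 2, all labelled with the strain C57BL6. They were female embryonic stem cells (ESCs) and parthenogenetic ESCs (pESCs, from activated oocytes with no father). The others were PGCs of embryonic days 9.5 (E9.5) and 12.5 (E12.5), and PGC-like cells (PGCLCs) made from ESCs or from pESCs. PGCLCs were made by 2 days with KSR, bFGF and Activin A, which gives epiblast-like cells, followed by 4 days with BMP4, SCF, EGF and LIF. According to the study's methods the PGCs came from female embryos and were sorted with antibodies to CD61 and SSEA1 or to SSEA1 alone. The methods also state that PGCLCs positive for both CD61 and SSEA1 were sorted by flow cytometry, and that the ESC lines were grown on mouse feeder cells. The study calls the libraries of a group biological replicates. Whether they came from separate lines, embryos or inductions is not given in the labels, so the p-values measure the spread between these libraries. A level between 0 and 100% in such bulk DNA can come from every cell or from a part of the cells, which cannot be told apart.

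As a check of the labels, promoters of genes with known roles were read in each group. Dppa3, a gene active in PGCs and ESCs, had a promoter level of 3.08% in ESCs, 68.5% in E9.5 PGCs and 33.7% in E12.5 PGCs. It had 39.8% in the PGCLCs from ESCs and 26.5% in those from pESCs. Pou5f1, the gene of the pluripotency factor Oct4, had 2.80%, 24.7% and 14.6% in ESCs, E9.5 PGCs and E12.5 PGCs, with 14.9% and 11.9% in the PGCLCs. Low promoter levels would be usual for genes active in PGCs, so the PGC and PGCLC libraries, and those labelled E9.5 PGC most, go against that pattern. The share of other cells in these samples was not tested. Among germline genes, the promoter of Ddx4 stood at 72.6% in E9.5 PGCs and 46.3% in E12.5 PGCs, and that of Dazl at 65.8% and 44.7%. Nanog and Peg3 promoters had no row, and Prdm1 had a level in few libraries. The imprinted promoters Snrpn, Mest and Peg10 stood at 83.0%, 46.2% and 36.8% in pESCs against 39.6%, 6.75% and 3.38% in ESCs, so that the 2 kinds of stem cell library were distinct.

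The MT and ORR1 rows were least methylated in the stem cells and in E12.5 PGCs, most methylated in E9.5 PGCs, and between these in both kinds of PGCLC. The mean over the 1901 rows was 43.9% and 34.2% in the ESC libraries and 39.7% and 37.6% in the pESC libraries. It was 63.7% and 63.5% in the E9.5 PGC libraries and 40.9% and 41.6% in the E12.5 PGC libraries. In the ESC-PGCLC libraries it was 51.3% and 51.3%, and in the pESC-PGCLC libraries 47.2% and 46.6%. ESC replicate 1 lay above ESC replicate 2 in 1556 rows, with a median gap of 10.04 points, whereas the 2 libraries of each PGC and PGCLC group differed by less than 1 point. The ESC libraries therefore enclosed those of pESCs and E12.5 PGCs, and every E9.5 PGC library lay above every ESC-PGCLC library, which in turn lay above every pESC-PGCLC library. The order E9.5 PGC, then both PGCLCs, then E12.5 PGC held for the group means of 1437 single rows. The share of all features with this order is not given here. Means over all repeat rows had the same order, with 65.1%, then 54.4% (ESC-PGCLC) and 50.7% (pESC-PGCLC), then 44.9%. Those over all features had it too, with 36.4%, then 29.5% and 27.4%, then 24.3%.

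**Figure D1:**
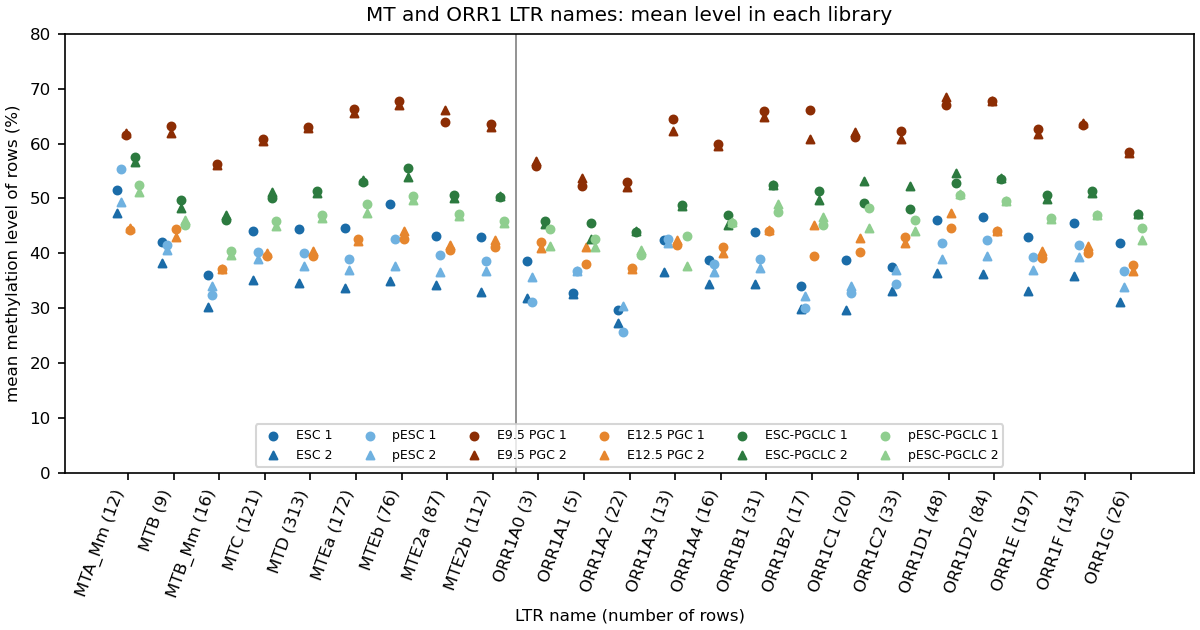
Mean methylation level (%, vertical axis) of the rows of each MT and ORR1 LTR name in each library, with circles for replicate 1, triangles for replicate 2, a colour for each group and the number of rows in brackets. The E9.5 PGC points form the top layer for every name, and ESC and pESC points lie around or under those of E12.5 PGCs. MTA_Mm has the highest ESC and pESC means, at 47.4% to 55.3%, but not the highest row medians, which are not drawn.

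How the rows were spread also differed. In E9.5 PGCs 284 rows stood at 80% or more and 39 under 20%, with quartiles of 53.0%, 66.0% and 75.3%. In E12.5 PGCs 4 rows stood at 80% or more, 998 lay between 40 and 60%, and the quartiles of 34.3%, 41.9% and 49.3% were close together. The ESC rows had nearly the same median as the E12.5 PGC rows, 41.2%, but a wider spread, with 307 rows under 20%. The median row difference between E12.5 PGCs and ESCs was 0.16 points, with quartiles of −7.85 and 10.7. Across the 1901 rows, which share consensus sequences and libraries, the group means of ESCs and pESCs had a Pearson correlation of 0.964, those of E9.5 and E12.5 PGCs 0.842, and those of ESCs and E12.5 PGCs 0.527. The similar means of stem cells and E12.5 PGCs were thus made up of different levels row by row.

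**Figure D2:**
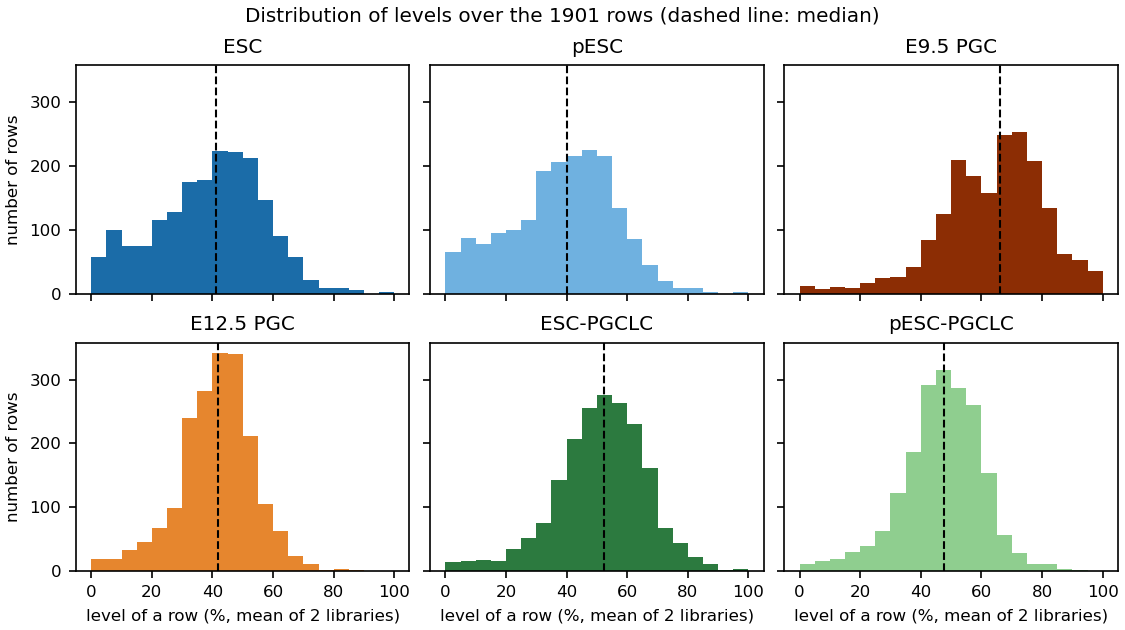
Number of rows (vertical axis) by methylation level (%, mean of the 2 libraries of a group, horizontal axis, bins of 5 points) for the 1901 MT and ORR1 rows, with a dashed line at the median. E12.5 PGC rows crowd around 41.9%, E9.5 PGC rows around 66.0%, and the ESC and pESC panels have a tail of rows under 20%.

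The rows under 20% in ESCs were found in every letter group except MTA. They made up 16.2% of all members, 28.8% of ORR1A LTR rows and 26.4% of ORR1C LTR rows, against 15.1% of MT LTR rows and 6.25% of MT internal rows. Their median level was 9.57% and 9.51% in the ESC libraries, 8.70% and 10.96% in the pESC libraries, 52.1% and 51.3% in the E9.5 PGC libraries and 33.2% and 33.3% in the E12.5 PGC libraries. In ESC-PGCLCs it was 38.5% and 38.0%, and in pESC-PGCLCs 34.3% and 34.6%. These rows were chosen by their ESC level, so their higher levels elsewhere are a description. Of the 307, 112 had at least 60% in E9.5 PGCs, with a median of 72.9% there, 46.1% in E12.5 PGCs and 12.1% in ESCs. One such row, ORR1D1:2-237, named after its values were seen, had 1.47% and 1.61% in ESCs, 0% in both pESC libraries, 89.3% and 81.1% in E9.5 PGCs and 47.1% and 34.6% in E12.5 PGCs. Some rows stayed on one side of a set level in every library, although those with a floor of 50% could still vary widely above it. There were 8 rows under 10% in all 12 libraries and 106 at 50% or more in all 12. The same shares over all features are not given here. A single row, MTA_Mm:1-134, stayed at 80% or more throughout, between 82.1% and 100%.

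MTA_Mm, the youngest MT name and one known for its activity in the oocyte, had the highest mean of the LTR names in the stem cells. By row medians it was not the highest, at 41.9% in ESCs and 44.4% in pESCs. ORR1A3 had row medians of 52.5% and 50.5% there. In ESCs the MTA_Mm rows had an upper quartile of 45.2% and a highest row of 95.7%. The 12 rows of MTA_Mm averaged 51.5% and 47.4% in ESCs and 55.3% and 49.4% in pESCs. They averaged 61.6% and 61.9% in E9.5 PGCs, 44.3% and 44.6% in E12.5 PGCs, 57.6% and 56.6% in ESC-PGCLCs, with 52.5% and 51.2% in pESC-PGCLCs. The E12.5 PGC means were thus below those of both stem cell groups, without overlap, which was not so for the mean over all members. By row medians MTA_Mm in E12.5 PGCs, at 41.3%, lay close to its 41.9% in ESCs.

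MTB had 9 rows with 42.0% and 38.2% in ESCs, 41.5% and 40.6% in pESCs, 63.3% and 61.8% in E9.5 PGCs and 44.3% and 42.9% in E12.5 PGCs. Its PGCLC levels were 49.7% and 48.2% from ESCs and 45.1% and 46.0% from pESCs. MTB followed the order of the whole set. MTC, the name behind the oocyte Dicer promoter, had 121 rows with 44.2% and 35.2% in ESCs, 40.2% and 39.0% in pESCs, 60.9% and 60.5% in E9.5 PGCs and 39.6% and 39.98% in E12.5 PGCs. In PGCLCs the MTC rows averaged 50.1% and 51.2% from ESCs and 45.9% and 44.9% from pESCs.

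MTD, the most numerous name, had 44.4% and 34.6% in ESCs, 39.97% and 37.7% in pESCs, 63.1% and 62.8% in E9.5 PGCs and 39.5% and 40.4% in E12.5 PGCs. Its PGCLC means were 51.4% and 51.0% from ESCs and 46.9% and 46.4% from pESCs. In both MTC and MTD the E12.5 PGC values fell between the ESC replicates. MTEa, an older name, had 44.7% and 33.6% in ESCs, 39.0% and 36.9% in pESCs, 66.2% and 65.5% in E9.5 PGCs and 42.6% and 42.2% in E12.5 PGCs. MTEa rows averaged 53.0% and 53.4% in ESC-PGCLCs, with 49.0% and 47.4% in pESC-PGCLCs. Among all LTR names, the related MTEb had one of the highest E9.5 PGC means, with 67.7% and 67.1%.

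The ORR1A LTRs, the youngest of ORR1, were as a set lower in the stem cells than the MT LTRs, with 33.8% against 39.4% in ESCs. ORR1A3 was not, with 39.6% in ESCs and 42.3% in pESCs over 13 rows. ORR1A0, with only 3 rows, had 38.6% and 31.9% in ESCs, 31.2% and 35.6% in pESCs, 55.9% and 56.8% in E9.5 PGCs and 42.1% and 41.0% in E12.5 PGCs. Its PGCLC levels were 45.9% and 45.4% from ESCs and 44.4% and 41.4% from pESCs. ORR1A2, with 22 rows, was chosen after its values were seen and had the lowest stem cell level of the LTR names, at 29.7% and 27.2% in ESCs and 25.6% and 30.4% in pESCs. The same rows had 53.0% and 52.1% in E9.5 PGCs and 37.2% and 37.1% in E12.5 PGCs, so that their E12.5 PGC level stayed above that of each stem cell library. For all ORR1A LTR rows, 59 in number, the group means were 33.8% ± 2.66 in ESCs and 39.6% ± 0.054 in E12.5 PGCs (SD, n = 2).

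ORR1B1 (31 rows) had 43.8% and 34.4% in ESCs, 39.0% and 37.3% in pESCs, 65.9% and 64.8% in E9.5 PGCs, 44.1% and 44.3% in E12.5 PGCs, 52.4% and 52.4% in ESC-PGCLCs, with 47.4% and 48.9% in pESC-PGCLCs. ORR1C1 (20 rows) had 38.8% and 29.7% in ESCs, 32.8% and 34.0% in pESCs, 61.2% and 62.1% in E9.5 PGCs, 40.3% and 42.8% in E12.5 PGCs, 49.2% and 53.2% in ESC-PGCLCs, with 48.3% and 44.7% in pESC-PGCLCs. Both had E12.5 PGC levels at or above the upper ESC replicate, which is the opposite of MTA_Mm. ORR1D1 (48 rows) had 46.0% and 36.4% in ESCs, 41.9% and 39.0% in pESCs, 66.9% and 68.6% in E9.5 PGCs, 44.7% and 47.3% in E12.5 PGCs, 52.7% and 54.6% in ESC-PGCLCs, with 50.5% and 50.9% in pESC-PGCLCs. ORR1D1 and ORR1D2 had the highest E9.5 PGC means of the ORR1 LTR names.

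ORR1E and ORR1F had levels near those of MTD, and ORR1G lay lower. ORR1E had 42.9% and 33.2% in ESCs, 39.3% and 36.9% in pESCs, 62.6% and 61.7% in E9.5 PGCs, 39.1% and 40.4% in E12.5 PGCs, 50.6% and 49.9% in ESC-PGCLCs, with 46.4% and 46.3% in pESC-PGCLCs. ORR1F had 45.5% and 35.9% in ESCs, 41.5% and 39.3% in pESCs, 63.3% and 63.7% in E9.5 PGCs, 40.1% and 41.3% in E12.5 PGCs, 51.4% and 50.9% in ESC-PGCLCs, with 47.1% and 47.0% in pESC-PGCLCs. ORR1E and ORR1F were within 2 points of each other in every group mean except those of ESCs and pESCs. ORR1G (26 rows) had 41.9% and 31.2% in ESCs, 36.8% and 33.8% in pESCs, 58.5% and 58.4% in E9.5 PGCs, 37.9% and 36.8% in E12.5 PGCs, 47.2% and 47.2% in ESC-PGCLCs, with 44.5% and 42.4% in pESC-PGCLCs.

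Internal rows, which carry no LTR promoter, lay close to the LTR rows as a whole, with 64.3% against 63.4% in E9.5 PGCs and 41.8% against 41.2% in E12.5 PGCs. In the stem cells the MT and ORR1 internal rows diverged. The 112 MT internal rows had 50.7% and 38.0% in ESCs, against 44.4% and 34.4% in the MT LTR rows, and the 213 ORR1 internal rows had 41.3% and 31.6%, against 42.9% and 34.1% in the ORR1 LTR rows. MT internal rows were thus higher than MT LTR rows within each ESC library, although the gap was smaller than the gap between the replicates.

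MTA_Mm-int (3 rows) had 46.5% and 41.7% in ESCs, 51.9% and 48.2% in pESCs, 56.7% and 59.2% in E9.5 PGCs, 39.5% and 38.5% in E12.5 PGCs, 48.7% and 46.4% in ESC-PGCLCs, with 46.2% and 46.7% in pESC-PGCLCs. MTD-int (25 rows) had 52.0% and 40.2% in ESCs, 46.6% and 43.7% in pESCs, 62.7% and 63.3% in E9.5 PGCs, 41.9% and 42.3% in E12.5 PGCs, 52.2% and 51.0% in ESC-PGCLCs, with 49.2% and 48.9% in pESC-PGCLCs. The internal part of MTA, like its LTR, was lower in E12.5 PGCs than in any stem cell library. Among internal names that was not particular to MTA, as it also held for ORR1A2-int, ORR1A4-int, ORR1B2-int and ORR1D-int. ORR1A2-int (10 rows) had 37.39% and 38.15% in E12.5 PGCs, against 41.31% in its lowest stem cell library. ORR1A0-int (2 rows) had 12.3% and 26.8% in ESCs, 24.3% and 27.3% in pESCs, 48.3% and 39.9% in E9.5 PGCs, 31.4% and 38.2% in E12.5 PGCs, 33.0% and 35.4% in ESC-PGCLCs, with 35.5% and 38.0% in pESC-PGCLCs. ORR1E-int (9 rows) had 50.5% and 38.4% in ESCs, 46.8% and 42.8% in pESCs, 70.3% and 69.1% in E9.5 PGCs, 43.5% and 45.2% in E12.5 PGCs, 56.6% and 55.6% in ESC-PGCLCs, with 51.4% and 51.2% in pESC-PGCLCs. The ORR1A0-int replicates were far apart, and its rows are too few to rank.

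The rows did not cover the consensus evenly. The 98 ORR1B1-int rows began at a median of position 632 of the consensus, with quartiles of 615 and 648.8, and the 41 ORR1A3-int rows at 717, with quartiles of 693 and 731. Their median lengths were 139.5 and 133 bases, against 724 for MTC-int, 929 for MTD-int and 305 for the LTR rows. LTR rows up to that median length averaged 63.5% in E9.5 PGCs and 41.5% in E12.5 PGCs, and longer LTR rows 63.3% and 40.8%.

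The first comparison asked how methylation changed between E9.5 and E12.5 PGCs. Most MT and ORR1 rows were called lower at E12.5 and 0 were called higher, although 29 rows had a difference above 0. A row was called at a limma adjusted p under 0.05, provided that its 2 group means lay 10 or more points apart. Between E9.5 and E12.5, 1614 of 1901 rows (84.9%) were called lower, with a median difference of −22.4 points. Over all 137202 features tested, 49.6% were called lower and 0.035% higher, with a median difference of −11.5 points. At an unadjusted p under 0.05, 1710 of the rows differed in either direction. The share called lower was 86.8% for MT LTR rows, 89.3% for MT internal rows, 82.1% for ORR1 LTR rows and 83.1% for ORR1 internal rows. By letter it ran from 59.3% for ORR1A (35 of 59) to 88.5% for ORR1G (23 of 26), with 83.3% for MTA (10 of 12) and 88.4% for MTE (395 of 447). The largest mean falls among names with a row called lower were those of the single MT-int row, at −36.9 points, of MTEa-int, at −26.8, and of MTE-int, at −26.4. MTEa-int went from 68.2% and 68.1% to 40.7% and 41.9%. MT-int had only 1 row, which went from 48.2% and 40% to 6.67% and 7.69% and was listed at 0 in ESC replicate 2 and pESC replicate 2.

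The share of the E9.5 level that was left at E12.5, taken from means over the LTR rows, was highest in MTA among the MT letters and in ORR1A among the ORR1 letters. From row medians it was not, as MTB with 71.2% lay above MTA with 70.4%, and ORR1C and ORR1A both stood at 70.1%. It was 71.9% for MTA, 67.6% for MTB, 65.5% for MTC, 63.4% for MTD and 64.5% for MTE. In ORR1 it was 69.3% for A, 67.3% for B, 68.3% for C, 66.1% for D, 64.0% for E, 64.1% for F and 64.0% for G. Over the 4 pairings of an E9.5 with an E12.5 library, MTA ranged from 71.5% to 72.3% and MTD from 62.6% to 64.3%, without overlap, whereas ORR1B ranged from 64.4% to 70.4%, which reached past the mean of ORR1A. Grouped after the values were seen, the 96 MTA, MTB and ORR1A LTR rows kept 69.2% and the 1480 other LTR rows 64.6%. From row medians, the same shares were 70.6% and 63.4%. The E12.5 levels of the 2 sets were 40.2% and 41.2%, and the E9.5 levels 58.0% and 63.8%. MTA alone had 44.4% and 61.8%. This is a description over rows, and the age of a name was not tested.

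**Figure D3:**
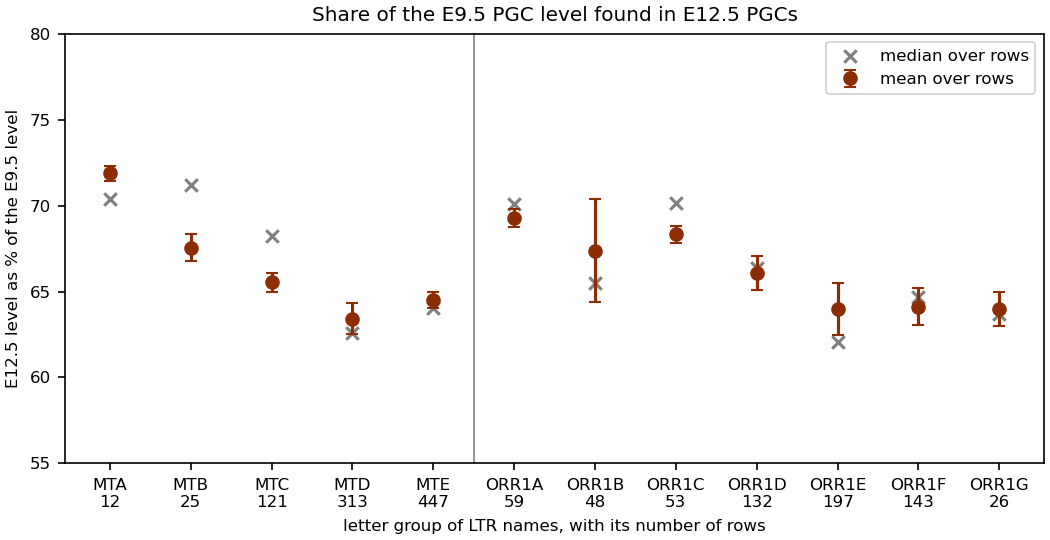
Level in E12.5 PGCs as a percentage of the level in E9.5 PGCs (vertical axis, starting at 55) for the LTR names of each letter, with the number of rows under it. Filled points are means over rows with bars from the lowest to the highest of the 4 library pairings, and crosses use row medians. MTA (71.9%) and ORR1A (69.3%) lie above MTD (63.4%) and ORR1E (64.0%).

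Other repeat families fell over the same interval. The share of the E9.5 level left at E12.5 was 64.9% for the MT and ORR1 rows, 62.4% for 646 MLT rows (the older MaLR names), 63.9% for 862 ERVL rows, 66.1% for 1557 B1 rows, 72.2% for 16831 L1 rows and 77.8% for 714 rows of IAP, a young active retrovirus-like family known for keeping methylation. The share of rows called lower was 86.7% for MLT, 84.1% for ERVL, 81.8% for B1, 90.2% for L1, 85.0% for IAP and 86.5% for all repeat rows, close to the 84.9% of the members. The share left was 66.7% over all features and 69.0% over all repeat rows. The members lay near ERVL, B1 and MLT and under L1 and IAP. No test of the difference between families was run.

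The next comparisons set the PGCLCs beside both ages of PGC. All of them share the PGC libraries and one fit, so they are not independent. Against E9.5 PGCs, 1057 rows (55.6%) were called lower and 3 higher in ESC-PGCLCs, with a median difference of −12.4 points. The background was 29.6% lower and 0.168% higher, with a median of −4.99. In pESC-PGCLCs 1399 rows (73.6%) were called lower and 2 higher, with a median of −16.6 points, against a background of 40.2% and 0.127% and a median of −7.48. Of all repeat rows, 43.3% were called lower in ESC-PGCLCs and 64.9% in pESC-PGCLCs. MTC had the smallest share called lower in ESC-PGCLCs of the letters with over 100 LTR rows, at 43.8% (53 of 121), and MTE the largest, at 60.2% (269 of 447). In pESC-PGCLCs the 2 letters had 66.1% and 79.9%. Among names with a row called lower, the largest mean falls in ESC-PGCLCs were those of MTEb-int (7 rows) at −15.3 points, ORR1C1-int (4 rows) at −14.8 and MTE2a at −14.7. By the same rule they were, in pESC-PGCLCs, those of the MT-int row at −35.6, ORR1A3 at −23.0 and MTE2b-int (4 rows) at −22.2. MTE2a, with 87 rows, went from 64.0% and 66.1% in E9.5 PGCs to 50.6% and 50.1% in ESC-PGCLCs, and ORR1A3, with 13 rows, from 64.4% and 62.2% to 43.1% and 37.6% in pESC-PGCLCs.

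Few rows went the other way. MTEa:105-227, named after its values were seen, was listed at 0 in both E9.5 PGC libraries and stood at 2.24% and 0.524% in E12.5 PGCs, 25.2% and 40.5% in ESC-PGCLCs, 23.5% and 22.2% in pESC-PGCLCs and 40.7% and 39.7% in ESCs. It was called higher in both kinds of PGCLC, with adjusted p of 0.00081 and 0.00039 by limma. When each library was centred on its median level, the E9.5 comparison called 60 rows higher and 162 lower in ESC-PGCLCs, and 27 higher and 329 lower in pESC-PGCLCs. The library medians over the features of this fit were 37.3% and 36.2% in E9.5 PGCs, 20.4% and 21.0% in E12.5 PGCs and between 24.3% and 27.3% in PGCLCs, and centring removes them. Relative to them the median differences were −2.27 points for ESC-PGCLCs, −4.49 for pESC-PGCLCs and −6.37 for E12.5 PGCs. For E12.5 against E9.5 PGCs centring gave 37 rows higher and 500 lower. The share of all features called after centring is not given here, so centred counts, here and below, have no background.

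**Figure D4:**
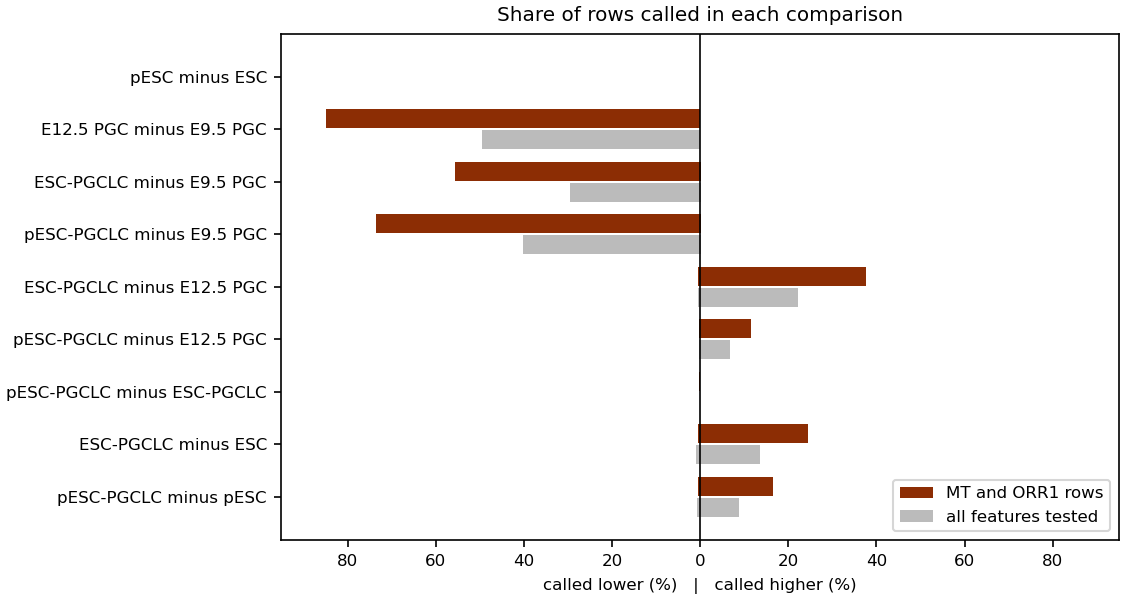
Share of rows called higher (right) or lower (left) in each comparison (percent, horizontal axis) for the 1901 MT and ORR1 rows and for all features tested. In each comparison with long bars the members exceed the background of all features, for example 84.9% against 49.6% called lower from E9.5 to E12.5. All repeat rows, not drawn, had 86.5% called lower there. The comparisons between the 2 origins are almost empty.

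Compared with E12.5 PGCs, ESC-PGCLCs were the more methylated. There were 717 rows (37.7%) called higher and 7 lower, with a median difference of 9.74 points, against a background of 22.2% and 0.523% and a median of 2.97. Of all repeat rows, 38.7% were called higher, so the members were close to repeats in general. MT internal rows had the largest share called higher, 56.3% (63 of 112), and ORR1A LTR rows the smallest, 16.9% (10 of 59), beside 17.0% for ORR1C (9 of 53). Among names with a row called higher, the largest mean rises were those of MTE2a-int (3 rows) at 16.0 points, MTE2b-int (4 rows) at 14.3 and MTEa-int (14 rows) at 13.9. With all 12 libraries in 1 fit the count was 269 higher and 3 lower, and after centring 165 higher and 20 lower.

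In pESC-PGCLCs 220 rows (11.6%) were called higher than in E12.5 PGCs and 4 lower, with a median of 5.45 points, against a background of 6.81% and 0.287% and a median of 1.30. The share called higher was 11.45% over all repeat rows, again close to that of the members. MTE2a-int (3 rows) at 11.5 points, MTEa-int (14 rows) at 9.97 and MTC-int (27 rows) at 7.60 had the largest mean rises of the names with a row called higher. MTEa-int stood at 51.1% and 51.4% in pESC-PGCLCs against 40.7% and 41.9% in E12.5 PGCs, and MTC-int at 50.8% and 49.1% against 42.3% and 42.4%. This count rested on every library. It was 16 without E12.5 PGC replicate 1, 45 without E12.5 PGC replicate 2, 2 without pESC-PGCLC replicate 1 and 8 without pESC-PGCLC replicate 2, each time with the lone library assumed to vary like the other groups, and 17 with all 12 libraries in 1 fit.

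The comparison of pESCs with ESCs asked whether parthenogenetic origin went with another level at these repeats. It called 0 rows, with a median difference of −0.51 points. By limma 27 of the 1901 rows had an unadjusted p under 0.05. The background was 0% in each direction, with a smallest adjusted p of 0.0795 among 148012 features. Without pESC replicate 1 there were 13 calls, and without pESC replicate 2 there were 9, in either direction. The median difference was 4.37 points without ESC replicate 1, −5.38 without ESC replicate 2 and 0.47 without pESC replicate 2. The gap between the ESC replicates, with means of 43.9% and 34.2%, was larger than that between the groups, with means of 39.1% ± 6.89 and 38.6% ± 1.55 (SD, n = 2), and a difference of a few points was not detectable here. MTA_Mm had the pESC libraries at 55.3% and 49.4% and the ESC libraries at 51.5% and 47.4%, which overlap.

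After induction, pESC-PGCLCs lay slightly below ESC-PGCLCs, with group means of 46.9% ± 0.359 and 51.3% ± 0.012 (SD, n = 2) and a median row difference of −4.28 points. Over all features the median was −0.953, and after centring the members had −2.33. Over all repeat rows it was −3.55, and over ERVL rows −4.69, so the members were close to repeats in general. Of all repeat rows, 0.0317% were called higher and 0.0864% lower. Of single rows 6 were called, 1 higher and 5 lower, where the background was 0.0445% and 0.0503%. At an unadjusted p under 0.05, 503 of 1901 rows differed in either direction. Among names with a row called lower, the largest mean falls were those of MTE-int at −6.11 points, MTEb at −4.59 and MTD at −4.55. MTE-int, with 24 rows, had 55.7% and 55.8% in ESC-PGCLCs, with 50.0% and 49.2% in pESC-PGCLCs.

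ORR1B1-int:624-647 had the largest difference of the 6, with 87.9% and 91.3% in ESC-PGCLCs, with 55.4% and 52.8% in pESC-PGCLCs (−2.77 ± 0.23 on the log2 odds scale, SE, limma adjusted p = 0.0368). The same row had 39.9% and 17.8% in ESCs, 93.3% and 90.1% in E9.5 PGCs and 32.9% and 32.1% in E12.5 PGCs. In ESC-PGCLCs it was thus near the E9.5 PGC level. MTE-int:42-476 had 78.3% and 78.0% in ESC-PGCLCs, 50.7% and 50.8% in pESC-PGCLCs, 77.9% and 76.4% in E9.5 PGCs and 28.7% and 27.9% in E12.5 PGCs (limma adjusted p = 0.00971). MTEb:11-277 had 66.0% and 67.4% in ESC-PGCLCs, 40.04% and 42.8% in pESC-PGCLCs, 68.4% and 66.4% in E9.5 PGCs and 37.5% and 42.1% in E12.5 PGCs (limma adjusted p = 0.0412). MTD:6-373 had 68.3% and 66.5% in ESC-PGCLCs, 44.7% and 46.0% in pESC-PGCLCs, 75% and 74.9% in E9.5 PGCs and 35.2% and 36.9% in E12.5 PGCs (limma adjusted p = 0.031). In these 4 rows ESC-PGCLCs lay closer to E9.5 PGCs than pESC-PGCLCs did. In MTD:6-373 both ESC-PGCLC libraries still lay below both E9.5 PGC libraries. The rows were picked for a lower level in pESC-PGCLCs than in ESC-PGCLCs, so their order is a description. The MTEb and MTD rows were at 5.40% to 14.3% in all ESC and pESC libraries.

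The other 2 rows rested on values at the limits of the scale. MTD:1-142 stood at 100% in ESC-PGCLC replicates 1 and 2, against 86.3% and 80% for pESC-PGCLCs (limma adjusted p = 0.0315). MTC:4-120 was listed at 0 for ESC-PGCLC replicates 1 and 2, against 30.8% and 17.7% for pESC-PGCLCs and between 21.9% and 49.4% in all other libraries (limma adjusted p = 0.017). The read depth behind such values is unknown. Across all members between 0.105% and 0.842% of rows in a library were listed at 0, and up to 1.11% at 100%. The count of 6 depended on each library, with 15 calls without ESC-PGCLC replicate 1, 0 without ESC-PGCLC replicate 2 and 1 when either pESC-PGCLC replicate was left out. At an offset of 0.1 there were 46 calls, 44 of them lower, and on untransformed levels 64, of which 62 were lower.

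**Figure D5:**
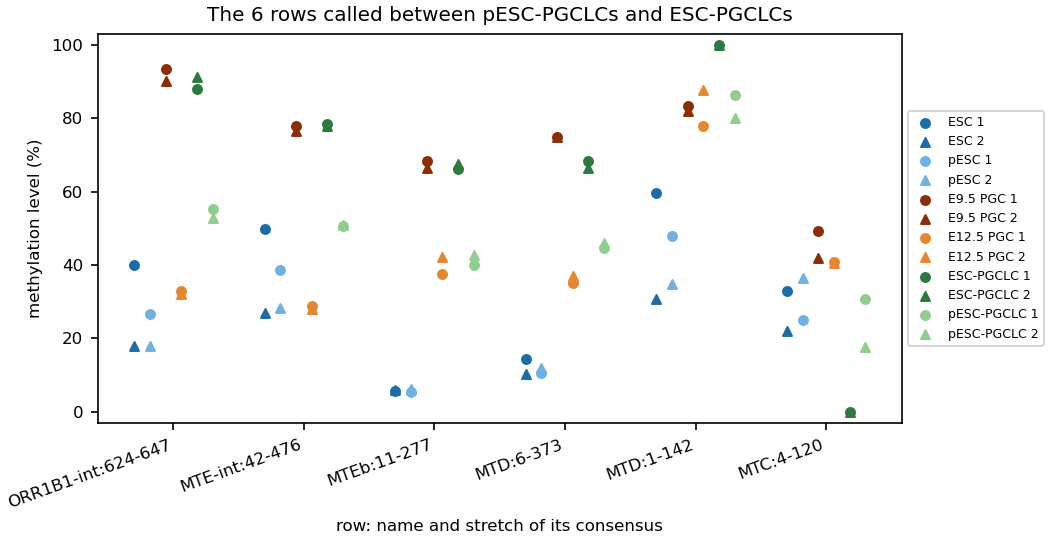
Methylation level (%, vertical axis) in each library of the 6 rows called between pESC-PGCLCs and ESC-PGCLCs, with circles for replicate 1 and triangles for replicate 2. In the 4 rows at the left the ESC-PGCLC points lie beside those of E9.5 PGCs, and in MTC:4-120 both ESC-PGCLC points lie at 0.

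The last comparisons followed the rows from the stem cells into PGCLCs, to show which rows differed after induction. From ESCs to ESC-PGCLCs 467 rows (24.6%) were called higher and 9 lower, with a median difference of 9.91 points, against a background of 13.7% and 0.899% and a median of 1.26. From pESCs to pESC-PGCLCs 313 rows (16.5%) were called higher and 10 lower, with a median of 6.02 points, against 8.91% and 0.746% and a median of 0.566. The 296 rows called higher in both made up 63.4% of the first list and 94.6% of the second. Both lists came from 1 fit with a shared estimate of spread for each row, so they are not independent. The same overlap over all features is not given here. The letters with the largest shares called higher from ESCs were ORR1C with 34.0% (18 of 53), ORR1A with 33.9% (20 of 59) and ORR1B with 33.3% (16 of 48). MTA had 16.7% (2 of 12), MTC 19.01% (23 of 121) and the MT internal rows 10.7% (12 of 112). ORR1C and ORR1A also had the lowest ESC levels of the letters, 34.9% and 33.8%, whereas MTA had 49.5% and the MT internal rows 44.4%.

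Among names with a row called higher, the largest mean rises from ESCs were those of MTE2b-int (4 rows) at 20.7 points, ORR1A3-int at 19.1 and ORR1B2 at 18.7. From pESCs they were ORR1B2 at 14.8 points, ORR1C1 at 13.1 and ORR1A3-int at 12.9. ORR1B2, with 17 rows, had 34.0% and 29.8% in ESCs and 51.3% and 49.8% in ESC-PGCLCs, and 30.1% and 32.3% in pESCs and 45.2% and 46.6% in pESC-PGCLCs. ORR1A3-int, with 41 rows, had 39.9% and 29.1% in ESCs, 53.5% and 53.6% in ESC-PGCLCs, 36.1% and 33.6% in pESCs and 47.5% and 48.0% in pESC-PGCLCs. Neither name overlapped between stem cells and PGCLCs of its origin. Of the names with a row called lower, the mean of MTA_Mm differed by −0.50 points between pESC-PGCLCs and pESCs and that of ORR1F-int by −0.96. In MTA_Mm the pESC libraries, at 55.3% and 49.4%, enclosed the pESC-PGCLC libraries at 52.5% and 51.2%.

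These counts moved with the libraries and the scale. From ESCs the count of 476 calls in either direction became 942 without ESC replicate 1, 290 without ESC-PGCLC replicate 1 and 267 without ESC-PGCLC replicate 2, and the median difference became 15.5 points without ESC replicate 1 and 4.89 without ESC replicate 2. From pESCs the 323 calls became 182 without pESC replicate 1, 162 without pESC-PGCLC replicate 1 and 155 without pESC-PGCLC replicate 2. Centring changed the direction, since the library medians of this fit were 14.1% and 11.8% in ESCs and 13.8% and 14% in pESCs but between 23.6% and 26.4% in PGCLCs. Centred, 207 rows were higher and 399 lower from ESCs, with a median of −2.86 points, and 182 higher and 412 lower from pESCs, with a median of −4.01.

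Other repeat families differed in this step. The share of rows called higher from ESCs was 31.6% for B1, 24.6% for the members, 23.7% for ERVL, 20.4% for MLT, 7.51% for L1 and 3.64% for IAP. It was 14.85% over all repeat rows. The ESC levels were 35.9% for B1, 39.1% for the members, 38.1% for ERVL, 41.4% for MLT, 51.8% for L1 and 68.4% for IAP. In ESC-PGCLCs IAP stood at 70.8% and the members at 51.3%. ESC-PGCLCs had 80.7% of the E9.5 PGC level at the members, against 85.8% at L1 and 90.4% at IAP. The differences between families were not tested.

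Whether induction differed by origin was tested as an interaction. It called 0 of the 1901 rows by limma, with 79 at an unadjusted p under 0.05, and 0.0183% of all features in each direction. The median difference of the 2 changes was −3.72 points for the members and −0.891 for all features. It was −3.15 for all repeat rows, −4.28 for ERVL and −4.06 for B1, so the members were close to other repeats. Without ESC-PGCLC replicate 1 there were 9 calls, 5 higher and 4 lower, and without ESC replicate 2 there was 1. The median was −8.87 points without ESC replicate 1 and 1.22 without ESC replicate 2.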

How the data were processed

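The deposited values were methylation fractions, 1 file a library and 1 value a feature, and stood for methylated over all CG calls. In the study's methods the authors aligned bisulfite reads with Bismark and Bowtie2, marked duplicates and corrected for non-conversion. The submitters' processing notes name Bismark 0.16.3 and the build mm10. The coverage minimum is not given in the sources used here. Since the levels were given without read counts, depth is unknown, no interval was computed and no count test was possible.

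Members were found by repeat class and name. Each feature was fitted by lmFit and eBayes of limma 3.58.1 in R 4.3.3, after levels were turned into log2 odds with an offset of 0.01 on both sides. Features with a level in each library of a fit entered, and p-values were adjusted by the Benjamini-Hochberg method over them all. ESCs and pESCs shared a fit of 148012 features, PGCs and PGCLCs one of 137202, and stem cells and PGCLCs one of 136848, which held the interaction. The step was tested on simulated levels. Values over a name or letter are means over its rows. Summaries used pandas 2.3.3 and numpy 2.4.6 under Python 3.11.15.

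Names given with all values were the main LTR name of each letter and 4 internal names. The 3 names of largest rise and fall among those with a called row were given by mean difference, some with library values. Each row of a comparison with at most 6 calls was given with part of its values. Members, families and lists were chosen with earlier results of these data known. Other offsets, untransformed levels, centring on the library median, other sets of libraries or features, no minimum difference, a replicate block and leaving out each library were tried as alternatives, and row medians were added after the data were seen. Groups and replicate numbers came from the sample titles.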

Additional observations from a re-analysis of the deposited data

How the results depend on the processing

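Except for pESCs against ESCs (−5.38 to 4.37 points) and the interaction (−8.87 to 1.22), where leaving out 1 library turned the sign of a median within the replicate spread, medians kept their sign under the alternatives other than centring on the library median. Centring gave −2.86 points for ESC-PGCLCs against ESCs and −4.01 for pESC-PGCLCs against pESCs. Centring also moved the other medians, to −6.37 points for E12.5 against E9.5 PGCs, −2.27 and −4.49 for ESC-PGCLCs and pESC-PGCLCs against E9.5 PGCs, 3.86 and 1.52 for the 2 against E12.5 PGCs and −2.33 between the 2. The counts of calls under centring were 537, 222, 356, 185 and 23 in the first 5 of these comparisons and 594 for pESC-PGCLCs against pESCs. With all 12 libraries in 1 fit, 272 and 17 rows were called in ESC-PGCLCs and pESC-PGCLCs against E12.5 PGCs and 1 by the interaction. Between the 2 kinds of PGCLC, 46 rows were called at an offset of 0.1 and 64 on untransformed levels. The median of −12.4 points for ESC-PGCLCs against E9.5 PGCs was −12.3 as a mean and −12.2 for LTR names only, and that of pESC-PGCLCs against pESCs was 8.25 as a mean, each beyond the small replicate SD.

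Leaving out 1 library gave 0 to 13 calls between pESCs and ESCs, 2 to 45 for pESC-PGCLCs against E12.5 PGCs, 0 to 15 between the 2 kinds of PGCLC, 267 to 942 for ESC-PGCLCs against ESCs, 155 to 245 for pESC-PGCLCs against pESCs and 0 to 9 for the interaction. Medians ranged from −12.5 to −12.3 points for ESC-PGCLCs against E9.5 PGCs, from −17.0 to −16.3 for pESC-PGCLCs against E9.5 PGCs and from 4.70 to 7.81 for pESC-PGCLCs against pESCs. The cause of these changes was not tested.

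Groups share replicate numbers, but nothing in the labels pairs them. Deviations from the group means correlated at 0.432 between ESCs and pESCs, at 0.139 between E9.5 PGCs and ESC-PGCLCs, and between −0.0573 and 0.0665 for the other pairs of groups. A replicate block gave 146 calls for pESC-PGCLCs against E12.5 PGCs and 2 between the 2 kinds of PGCLC, and moved no other count by over 1.5 times. In all, 160 alternative values were within 1.5 times the count or 1 replicate SD of the median. Among them were the changes of sign between pESCs and ESCs and in the interaction. A further 46 values moved beyond these limits, and 2 reversed. Of the 12 shares kept from E9.5 to E12.5 by letter, 6 moved by more than their library pairings when row medians were used.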
